A study of Homo sapiens with 8 samples.

Results

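The TNF receptor superfamily was read here through 10 of its genes: TNFRSF18, TNFRSF4, TNFRSF9, TNFRSF14, TNFRSF1B, TNFRSF1A, TNFRSF25, FAS, TNFRSF10A and TNFRSF10B. They were taken from the 31402 entries of an RNA-seq table by their symbols, each of which stood on 1 row only. The genes count as chosen by their FPKM in these libraries, which was known beforehand, so the levels are described and not tested. Values are FPKM, fragment counts normalized to transcript length and to sequencing depth, which puts genes and libraries on 1 scale. Comparisons between libraries still depend in part on further scaling, as given below. Of the 10 genes, 8 had a mean FPKM of at least 1 over all libraries, and TNFRSF9 and FAS did not.

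The 8 libraries came from KCL-22, an established human cell line of chronic myeloid leukemia in blast crisis, driven by the BCR-ABL fusion kinase. All cells had first been tagged with ClonTracer, a lentiviral barcode library that marks the descendants of single cells. Of the 4 expanded single clones, Clones 1 and 2 derived from cells resistant to GNF-2 at 2.5 µM, were resistant to GNF-2 only and had not met a catalytic inhibitor. Clone 3 derived from imatinib-resistant cells, was resistant to imatinib and nilotinib and had not met GNF-2. Clone 4 had the same origin as Clones 1 and 2, had likewise met GNF-2 only, and was resistant to imatinib, nilotinib and GNF-2. Of the 3 resistant populations, 1 had spent 27 days under imatinib at 2.5 µM, 1 the same time under nilotinib at 0.3 µM and 1 had spent 21 days under GNF-2 at 2.5 µM; they are named below by their inhibitor. The vehicle population had spent 7 days in 0.1% DMSO. Imatinib and nilotinib act at the catalytic site of the kinase, whereas GNF-2 is allosteric and binds elsewhere on it. Each condition had 1 library and each clone is 1 clone. The labels do not say whether a clone came from the very population that was sequenced, or whether libraries came from separate cultures, so p-values measure only the spread between these samples.

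Receptors of this family span the membrane once and bind ligands that are mostly trimers. Those with a death domain inside the cell (TNFRSF1A, TNFRSF10A, TNFRSF10B, TNFRSF25 and FAS) can recruit FADD or TRADD and, through caspase-8, start apoptosis. The others bind TRAF adaptors, which feed the canonical and the alternative NF-κB pathways. TNFRSF18 (GITR), TNFRSF4 (OX40) and TNFRSF9 (4-1BB) are best known as co-stimulatory receptors of activated T cells.

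The identity of the line was read from marker genes. Of the 8 T cell markers, CD3E, CD3G, CD2, CD5 and CTLA4 were under an FPKM of 1 in every library. CD3D was expressed, with 32.0 FPKM in vehicle, 1.94 to 10.6 in the resistant populations and 12.4 in Clone 1. In Clones 2, 3 and 4 CD3D had 0 to 0.898. CD8A reached 1.63 in vehicle and CD28 1.02 in Clone 4. The T cell markers together summed to between 0.909 and 14.0 FPKM in the clones, 3.81 to 12.3 in the resistant populations and 34.6 in vehicle, and their part in the receptor values was not tested. Markers of some other lineages were present. Of the 5 NK cell markers, GNLY, KLRD1 and NCR1 were under 1 throughout, but NKG7 had 73.3 to 423.5 FPKM in the clones, 119 to 271.5 in the resistant populations and 359.9 in vehicle, and PRF1 reached 54.7 in Clone 2. The B cell receptor chains CD79A (17.4 to 98.9) and CD79B (18.3 to 53.3) and, of the megakaryocyte markers, GP9 (20.3 to 118.6) were expressed in every library, and ITGB3 reached 90.1 in Clone 2. Of the 5 fibroblast markers 4 were under 1 throughout, and COL1A2 reached 4.61 in Clone 2. The 6 erythroid markers were under 1 in every library. Of the 8 myeloid progenitor markers, PTPRC and ANPEP reached 1 in every library, while KIT, MPO and CSF2RB were under 1 in all of them. SPI1 was listed at 0 in Clones 3 and 4 and had 7.497 to 29.9 FPKM in the other libraries. CD34 had 12.19 in Clone 4, 2.08 in the imatinib population, 3.078 in the GNF-2 population and under 1 elsewhere. CD33 ran from 0.157 in Clone 3 to 3.35 in Clone 2. The myeloid progenitor list summed to 61.4 to 110.2 FPKM in the clones, 109 to 137 in the resistant populations and 180 in vehicle. Depth was estimated roughly from the smallest steps of the values at 18400000 to 39400000 fragments, so 1 fragment of a transcript of 2 kb was worth 0.0127 to 0.0272 FPKM.

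Upstream sequence is shown for the 4 genes that stand for the different behaviours in these libraries: TNFRSF18, which had the widest range of FPKM; TNFRSF25, listed at 0 in 2 clones; TNFRSF9, near 0 throughout; and TNFRSF1A, which stayed closest to 1 level. Each run is the 250 bases before the transcription start, 5′ to 3′ on the gene's own strand, from RefSeq on GRCh38.p14, whose coordinates differ from those of the expression table. Capitals mark matches, on either strand, to a GC box, a TATA box, an AP-1 site, an E box or an NF-κB site. The letters follow, except for the NF-κB pattern, which uses ambiguous bases and is given by name alone.
TNFRSF18: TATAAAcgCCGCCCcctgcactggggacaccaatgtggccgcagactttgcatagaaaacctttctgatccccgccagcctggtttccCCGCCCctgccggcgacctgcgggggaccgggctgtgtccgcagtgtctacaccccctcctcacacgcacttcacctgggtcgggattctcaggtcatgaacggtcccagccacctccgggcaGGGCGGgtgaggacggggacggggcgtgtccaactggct
TNFRSF25: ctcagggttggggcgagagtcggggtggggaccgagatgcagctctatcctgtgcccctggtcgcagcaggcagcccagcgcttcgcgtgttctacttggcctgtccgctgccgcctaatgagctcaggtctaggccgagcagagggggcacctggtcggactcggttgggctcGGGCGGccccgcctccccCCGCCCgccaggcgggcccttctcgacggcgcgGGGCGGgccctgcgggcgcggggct
TNFRSF9: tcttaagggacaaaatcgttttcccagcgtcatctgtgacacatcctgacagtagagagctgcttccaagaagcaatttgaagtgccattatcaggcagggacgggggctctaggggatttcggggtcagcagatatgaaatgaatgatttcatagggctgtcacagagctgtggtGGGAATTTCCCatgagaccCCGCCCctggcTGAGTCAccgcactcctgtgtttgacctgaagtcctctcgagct
TNFRSF1A: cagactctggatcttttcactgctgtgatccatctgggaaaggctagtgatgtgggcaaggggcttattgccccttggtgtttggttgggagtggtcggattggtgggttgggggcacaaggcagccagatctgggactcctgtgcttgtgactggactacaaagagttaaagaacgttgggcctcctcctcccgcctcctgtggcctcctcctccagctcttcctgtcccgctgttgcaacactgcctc
The TNFRSF18 window lies at chr1:1206593-1206842 on the minus strand, has 18 CpG dinucleotides and a GC content of 65.6%, and holds 3 GC boxes (GGGCGG) and 1 TATA box at its upstream end. The TNFRSF25 window (chr1:6466174-6466423, minus strand) has 26 CpG dinucleotides, a GC content of 73.6% and 3 GC boxes. The letters taken for a TATA box, absent from this window, were TATAAA. The TNFRSF9 window (chr1:7940840-7941089, minus strand) has 7 CpG dinucleotides and holds 2 overlapping NF-κB matches, 1 GC box and 1 match to the AP-1 letters TGANTCA. The TNFRSF1A window (chr12:6342077-6342326, minus strand) has 4 CpG dinucleotides and none of the searched letters, which for the E box were CACGTG. Over 35116 RefSeq promoters the median was 11 CpG dinucleotides. A GC box was present in 42.6% of them, a TATA box in 10.7%, an AP-1 match in 6.57%, an E box in 6.34% and an NF-κB match in 5.21%. RefSeq promoter rows were matched for 7 of the 10 genes; TNFRSF4, TNFRSF10A and TNFRSF10B were not among them. A match describes letters and says nothing of binding.

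The co-stimulatory receptors TNFRSF18 and TNFRSF4, neighbours on chromosome 1, had the widest fold ranges of the members that were above 0 in every library. TNFRSF18 (1138888 to 1142089, GRCh37) had 68.7 FPKM in Clone 1, 82.0 in Clone 2, 7.04 in Clone 3 and 1.56 in Clone 4, against 1.57 under imatinib, 14.4 under nilotinib and 3.44 under GNF-2, and 6.95 in vehicle. Clones 1 and 2 stood above all other libraries, and Clone 4 and the imatinib population shared the bottom of the range. The highest level was 52.6 times the lowest, and for TNFRSF4 it was 223 times. The TNFRSF4 ratio rests on 0.0678 FPKM in the imatinib population, a level of a few fragments, so its size is uncertain. These are bulk libraries, so a difference in the number of cells that carry a transcript and a difference in transcript per cell cannot be told apart.

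TNFRSF4 (1146706 to 1149548) had 4.65 FPKM in Clone 1, 15.1 in Clone 2, 0.115 in Clone 3 and 0.254 in Clone 4, against 0.0678 under imatinib, 0.840 under nilotinib and 0.794 under GNF-2, and 0.762 in vehicle. It thus exceeded 1 in Clones 1 and 2 only, and Clone 2 alone passed 5. The nilotinib, GNF-2 and vehicle populations were nearly level. Among pairs of the 8 members with a mean of at least 1, TNFRSF10B with TNFRSF1A (r = 0.927) and TNFRSF4 with TNFRSF18 (r = 0.898, Pearson, log2(FPKM + 1), 8 libraries) had the highest correlations; both describe the same 8 libraries and were not tested.

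**Figure D1:**
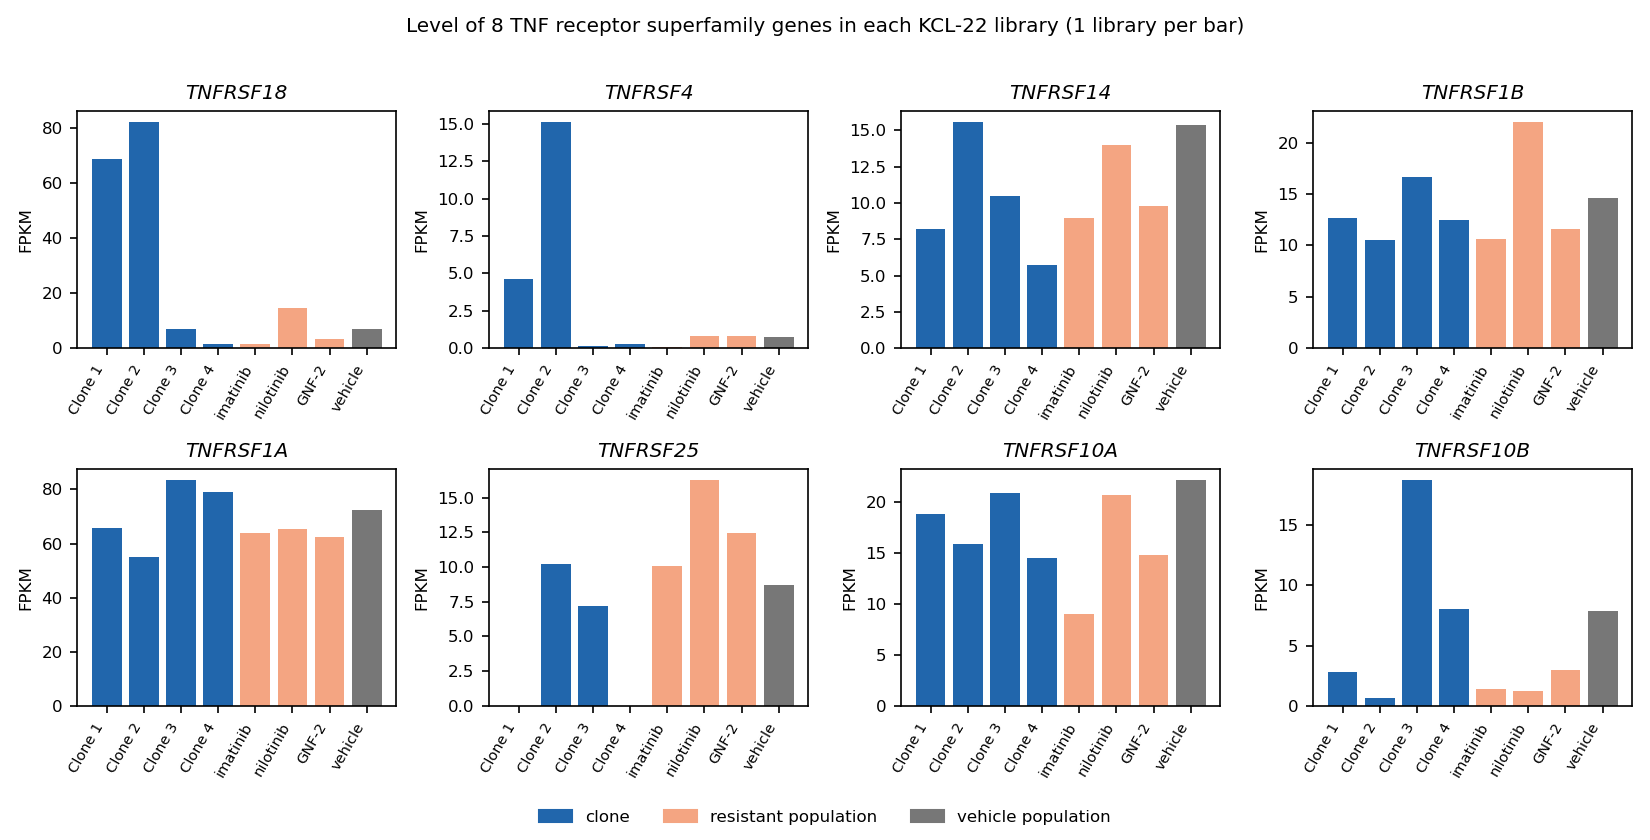
FPKM of the 8 members with a mean of at least 1, 1 bar per library and 1 panel per gene, each with its own axis from 0; blue bars are clones, orange bars resistant populations and the grey bar is vehicle. TNFRSF18 and TNFRSF4 are tall in Clones 1 and 2, TNFRSF10B in Clone 3, TNFRSF25 has no bar in Clones 1 and 4, and TNFRSF1A is nearly level.

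Clones 1 and 2 share the label of resistance to GNF-2 alone, and both genes were above the other 6 libraries in these clones. The lower of the 2 clones exceeded the highest other library 4.76-fold for TNFRSF18 and 5.53-fold for TNFRSF4. Of all 11843 genes that averaged an FPKM of 1 or more, 5.17% had both clones above the other 6 libraries. The ratio was ranked among those that reached 5 in both clones and were above 0 in at least 1 of the other 6 libraries. There KIAA0125 was the only gene with a larger ratio (16.5) than TNFRSF18. IL1B, which encodes the cytokine interleukin-1 beta, came next with 3.47. The GNF-2 population, resistant to the same compound, had 3.44 FPKM of TNFRSF18, below vehicle, so the high level was not shared by all libraries resistant to GNF-2 alone.

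The genes around the pair were read in the same libraries, a choice made after their values were seen. TTLL10 encodes a member of the tubulin tyrosine ligase-like family and ends 5574 bases before TNFRSF18. It had 1.77 FPKM in Clone 1, 2.98 in Clone 2 and 0 in Clones 3 and 4, against 0.0390, 0.447 and 0.137 in the imatinib, nilotinib and GNF-2 populations and 0 in vehicle. TTLL10 was thus also highest in Clones 2 and 1, with the nilotinib population next. SDF4, a calcium-binding protein of the Golgi whose entry begins 2739 bases after TNFRSF4, had 79.3 to 99.1 FPKM in the clones, 55.9 to 66.6 in the resistant populations and 61.1 in vehicle. Its order of libraries was another one, with Clone 4 highest and every clone above every population. TNFRSF18 and TNFRSF4 themselves lie 4616 bases apart.

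**Figure D2:**
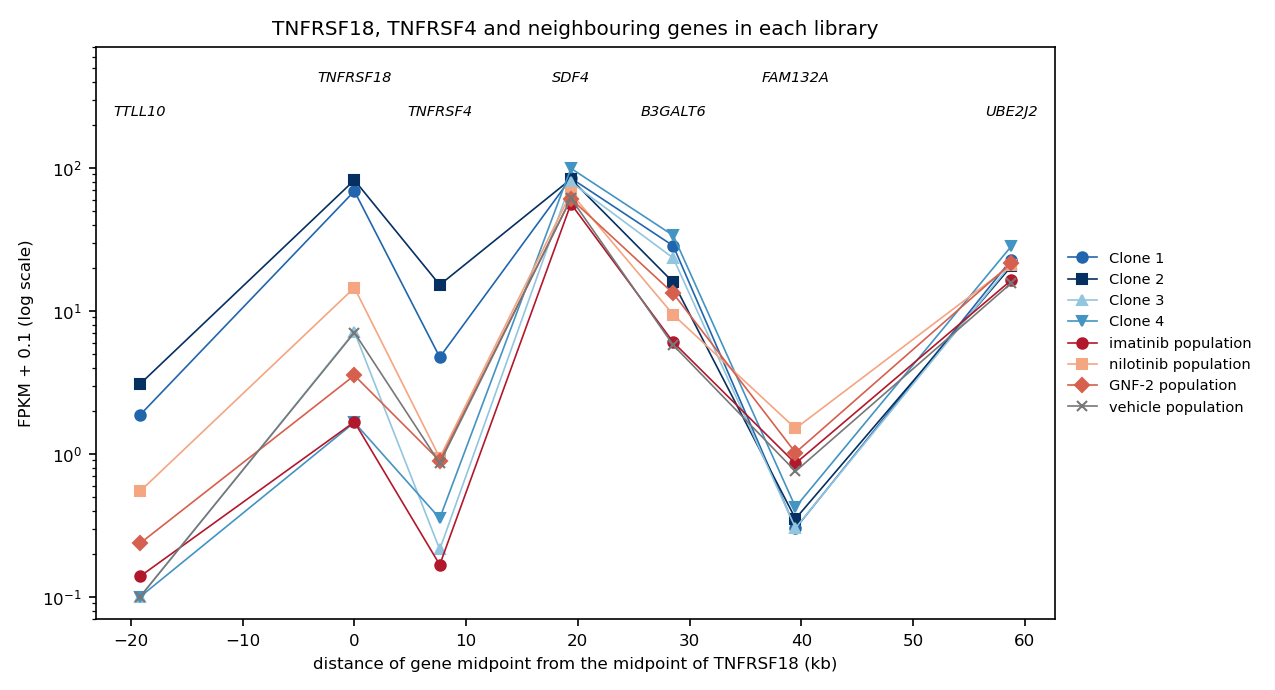
FPKM + 0.1 on a log axis against the distance of each gene's midpoint from that of TNFRSF18 in kilobases, 1 line per library. Clones 1 and 2 lie above the other libraries at TTLL10, TNFRSF18 and TNFRSF4. The lines of all libraries lie closer together at SDF4, where every clone is above every population.

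TNFRSF9, the third co-stimulatory receptor (chromosome 1, 7975931 to 8003225), was at most 0.00985 FPKM, in the nilotinib population, and was listed at 0 in Clones 2, 3 and 4 and in the imatinib population. That is less than 1 fragment of a 2 kb transcript at these depths. Its level gives no order of libraries.

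TNFRSF14 (HVEM; chromosome 1, 2487805 to 2495267) binds the ligand LIGHT and the co-inhibitory receptor BTLA. It had 8.19 FPKM in Clone 1, 15.5 in Clone 2, 10.5 in Clone 3 and 5.73 in Clone 4, against 8.96 under imatinib, 14.0 under nilotinib and 9.77 under GNF-2, and 15.4 in vehicle. Clone 2 and vehicle were level at the top and Clone 4 was lowest. An entry named LOC100133445 shares 646 bases with it, and the sources used here do not state whether counting used strand.

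The TNF receptors proper were the steadiest members. TNFRSF1A, the ubiquitous death-domain receptor for TNF (chromosome 12, 6437923 to 6451283), had 65.8 FPKM in Clone 1, 55.0 in Clone 2, 83.4 in Clone 3 and 79.0 in Clone 4, against 64.0 under imatinib, 65.4 under nilotinib and 62.3 under GNF-2, and 72.5 in vehicle. Its highest level was 1.51 times its lowest, and the clones averaged 70.8 ± 12.9 against 63.9 ± 1.55 in the resistant populations (SD, n = 4 and n = 3). It was the most abundant member in every library but Clones 1 and 2, where TNFRSF18 exceeded it. Its upstream window, printed with the sequences, held none of the searched motifs.

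TNFRSF1B, the TNF receptor without a death domain (chromosome 1, 12227060 to 12269277), had 12.7 FPKM in Clone 1, 10.5 in Clone 2, 16.7 in Clone 3 and 12.5 in Clone 4, against 10.6 under imatinib, 21.98 under nilotinib and 11.6 under GNF-2, and 14.6 in vehicle. Only the nilotinib population stood clear of the rest.

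The receptors for TRAIL, TNFRSF10A and TNFRSF10B, lie on chromosome 8 and did not follow each other. TNFRSF10A (DR4; 23048970 to 23082680) had 18.8 FPKM in Clone 1, 15.9 in Clone 2, 20.9 in Clone 3 and 14.5 in Clone 4, against 9.07 under imatinib, 20.7 under nilotinib and 14.8 under GNF-2, and 22.2 in vehicle. It was the 1 member that lay below vehicle in all 7 resistant libraries, a pattern that 13.9% of all genes shared. The margin was small in Clone 3 and the nilotinib population and largest in the imatinib population. No member was above vehicle in all 7, against 19.8% of all genes.

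TNFRSF10B (DR5; 22877648 to 22926700) had 2.78 FPKM in Clone 1, 0.701 in Clone 2, 18.7 in Clone 3 and 8.05 in Clone 4, against 1.42 under imatinib, 1.23 under nilotinib and 2.98 under GNF-2, and 7.84 in vehicle. Clone 3 was the highest library, Clone 4 was level with vehicle, and Clones 1 and 2 lay with the resistant populations. The highest level was 26.7 times the lowest. All 3 resistant populations were below vehicle, 5.54-fold for imatinib, 6.39-fold for nilotinib and 2.63-fold for GNF-2. Its entry shares 63 bases with RHOBTB2, which was at most 2.21 FPKM and listed at 0 in Clone 3, where TNFRSF10B was highest. It also shares 959 bases with LOC286059.

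TNFRSF25 (DR3), a death-domain receptor for the ligand TL1A (chromosome 1, 6521214 to 6526255), was listed at 0 in Clones 1 and 4. It had 10.2 FPKM in Clone 2 and 7.16 in Clone 3, against 10.1 under imatinib, 16.2 under nilotinib and 12.4 under GNF-2, and 8.74 in vehicle. Clones 1 and 4 thus stood apart from the other 6 libraries. The upstream window printed for TNFRSF25 is the richest in CpG of those shown. An exact 0 can be a failed estimate, and 401 of the tested genes were listed at 0 in at least 1 library, 297 of them with 5 or more in another. Only TNFRSF25 and RFC4 were listed at 0 in exactly these clones with at least 5 in the other 6 libraries. PLEKHG5, which shares 104 bases with the TNFRSF25 entry, had 11.4 FPKM in Clone 1, 26.0 in Clone 2, 19.2 in Clone 3 and 11.6 in Clone 4, against 24.0, 36.3 and 31.5 in the imatinib, nilotinib and GNF-2 populations and 22.5 in vehicle. The same Clones 1 and 4 were lowest for PLEKHG5. Its part in the TNFRSF25 values was not tested.

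FAS, the death receptor for FASLG (chromosome 10, 90729553 to 90775542), was at most 0.0471 FPKM, in the nilotinib population, and was listed at 0 in Clones 1, 2 and 4. The overlapping entries STAMBPL1, ACTA2 and FAS-AS1 share part of its span. Its level in the remaining libraries was that of a few fragments, so no order was read.

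The first comparison asked how the resistant populations differed from vehicle. A gene was counted when 2 libraries were at least 2-fold apart in FPKM with 5 or more in the higher one; with 1 library a condition this has no replicate check. In the imatinib population 3 members were lower than in vehicle: TNFRSF18 by 4.42-fold, TNFRSF10A by 2.44-fold and TNFRSF10B by 5.54-fold. Of all eligible genes 3.85% were counted in that pair, 2.59% as lower. In the nilotinib population TNFRSF18 was 2.07-fold higher and TNFRSF10B lower (5.74% of all genes counted). In the GNF-2 population TNFRSF18 was 2.02-fold lower and TNFRSF10B lower (9.35% of all genes counted). TNFRSF10B was thus below vehicle in each population, whereas TNFRSF18 was lower in 2 of them and higher under nilotinib. The 2.07-fold and 2.02-fold differences of TNFRSF18 lay close to the threshold. Neither was counted when the fold was taken on FPKM + 1, and the nilotinib one was also lost after rescaling by median ratios. The 3 pairs share the vehicle library. With a floor of 10 FPKM, TNFRSF10B drops out of all 3 pairs and TNFRSF18 out of the imatinib and GNF-2 pairs, since their higher value there lies under 10.

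Each clone was then set against the resistant population under the same inhibitor. In Clone 1 TNFRSF18 was 20.0-fold above the GNF-2 population and TNFRSF25 was listed at 0 (12.1% of all genes counted). TNFRSF4 was 5.85-fold above it but missed the floor of 5 at 4.65 FPKM. In Clone 2 TNFRSF18 was 23.9-fold and TNFRSF4 19.0-fold above the GNF-2 population (13.8% of all genes counted, 4.65% as higher). Clones 1 and 2 thus both stood above the GNF-2 population for TNFRSF18, which had the largest ratio of any member in each of these pairs. In Clone 3 TNFRSF10B was 13.2-fold, TNFRSF18 4.47-fold and TNFRSF10A 2.31-fold above the imatinib population (13.6% of all genes counted, 4.77% as higher). In Clone 4 TNFRSF10B was 2.70-fold above the GNF-2 population and TNFRSF25 was listed at 0 (13.8%). TNFRSF1A and TNFRSF1B were counted in none of these 4 pairs. Clones 1, 2 and 4 share the GNF-2 population as their comparator.

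**Figure D3:**
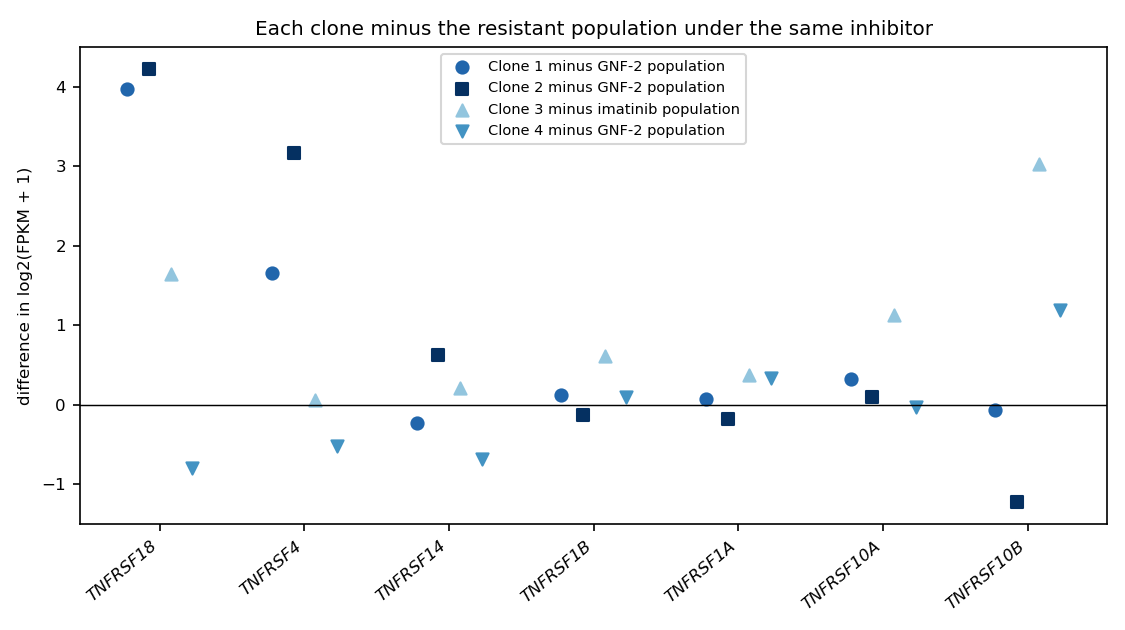
Difference in log2(FPKM + 1) between each clone and the resistant population under the same inhibitor, 1 symbol per clone, for 7 members (TNFRSF25 is left out because of its values of 0). TNFRSF18 lies near 4 in Clones 1 and 2 and below 0 in Clone 4, and TNFRSF10B is highest in Clone 3.

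Clone 4, resistant to all 3 compounds, was compared with Clones 1 and 2 of the same origin. TNFRSF18 was 44.0-fold lower in Clone 4 than in Clone 1 and 52.6-fold lower than in Clone 2. TNFRSF10B was 2.89-fold higher in Clone 4 than in Clone 1 and 11.5-fold higher than in Clone 2. TNFRSF4 was 18.3-fold lower in Clone 4 than in Clone 1 and 59.4-fold lower than in Clone 2. The fold against Clone 1 was not counted, since Clone 1 at 4.65 FPKM lay just under the floor of 5. Both folds rest on a low value, 0.254 FPKM in Clone 4. TNFRSF14 was counted as lower against Clone 2, by 2.71-fold, and TNFRSF25 was listed at 0 in Clone 4 and at 10.2 FPKM in Clone 2. In all, 2 members were counted against Clone 1 (9.88% of all genes) and 5 against Clone 2 (13.8%). Against Clone 3, which shares its resistance to catalytic inhibitors, TNFRSF18 was 4.52-fold and TNFRSF10B 2.33-fold lower in Clone 4, and TNFRSF25 was listed at 0 (11% of all genes counted, 4.32% as lower).

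Read by group, the clones and the resistant populations overlapped for all 10 members, while 26.3% of all tested genes did not overlap between these groups. TNFRSF18 averaged 39.8 ± 41.4 FPKM in the clones and 6.48 ± 6.94 in the resistant populations (SD, n = 4 and n = 3), so its spread within the clones exceeded the difference. TNFRSF10B averaged 7.56 ± 8.05 in the clones and 1.87 ± 0.961 in the resistant populations. The libraries resistant to catalytic inhibitors (the imatinib and nilotinib populations and Clone 3) and those resistant to GNF-2 alone (the GNF-2 population and Clones 1 and 2) also overlapped for all 10 members, against 10.9% of all genes without overlap. TNFRSF18 averaged 7.68 ± 6.45 FPKM in the catalytic-resistant group and 51.4 ± 42.1 in the GNF-2-resistant group (SD, n = 3 each). On the log2(FPKM + 1) scale that is a difference of -2.11 with a pooled SD of 1.91. It was -1.36 without Clone 2 and -3.48 without the GNF-2 population. TNFRSF10B averaged 7.12 ± 10.04 FPKM in the catalytic-resistant group and 2.15 ± 1.26 in the GNF-2-resistant group, and its log2 difference of 0.68 became -0.35 without Clone 3.

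The ligands of these receptors were read next. TNFSF18, the ligand of TNFRSF18, was listed at 0 in all 4 clones and was at most 0.0893 FPKM in the nilotinib population. TNFSF4, the ligand of TNFRSF4, had 8.95 FPKM in Clone 1, 1.92 in Clone 2, 3.96 in Clone 3 and 16.9 in Clone 4, against 6.52, 7.82 and 10.3 in the imatinib, nilotinib and GNF-2 populations and 3.85 in vehicle. Clone 2, the library with the most TNFRSF4, thus had the least of its ligand, whereas Clone 4 had the most. TNFSF10, which encodes TRAIL, had 8.23 FPKM in Clone 1, 2.54 in Clone 2, 22.2 in Clone 3 and 15.7 in Clone 4, against 9.54, 11.4 and 8.86 in the imatinib, nilotinib and GNF-2 populations and 20.3 in vehicle. Clone 3 was highest and Clone 2 lowest for TNFSF10, as for its receptor TNFRSF10B. TNF itself lay between 0.750 (Clone 4) and 3.94 (nilotinib population). FASLG, TNFSF14 and TNFSF15, the ligands of FAS, TNFRSF14 and TNFRSF25, were under 1 FPKM in every library.

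**Figure D4:**
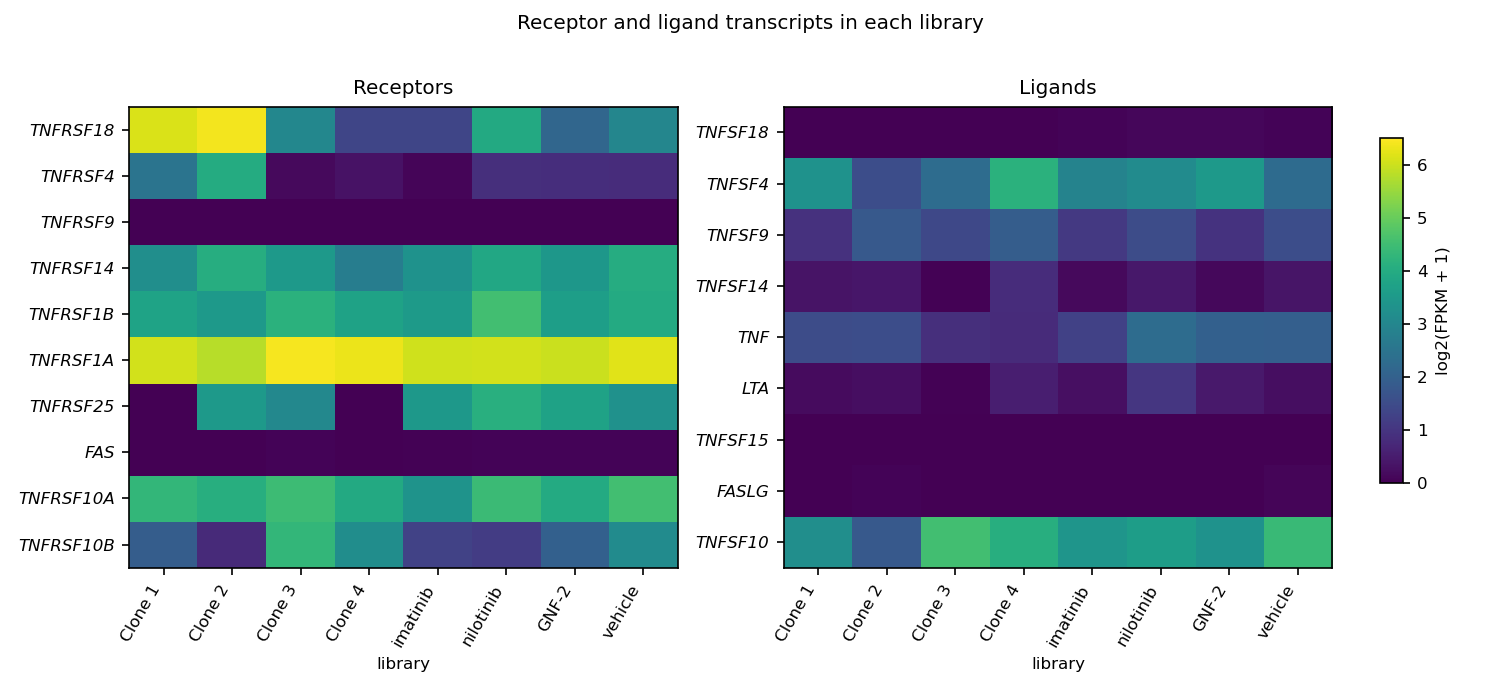
Log2(FPKM + 1), as colour, of the 10 receptors (left) and 9 of their ligands (right) in each library. TNFRSF1A is bright throughout and TNFRSF18 in Clones 1 and 2, while TNFSF18, TNFSF15 and FASLG are dark in every library.

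Other receptors of the family gave the following levels. TNFRSF8 (CD30), a marker of activated lymphocytes, had 5.95 FPKM in Clone 1, 0.0989 in Clone 2, 30.7 in Clone 3 and 6.72 in Clone 4, against 7.43, 5.42 and 8.25 in the imatinib, nilotinib and GNF-2 populations and 7.74 in vehicle. TNFRSF12A, the receptor for TWEAK, was also highest in Clone 3 (18.8) and lowest in Clone 2 (2.10), with 10.7 in vehicle. TNFRSF10D, a TRAIL receptor with a truncated death domain, had 6.54 to 28.5 FPKM in the clones, 14.9 to 26.7 in the resistant populations and 36.0 in vehicle. Clone 3 was the highest clone for all 3 of these genes and Clone 2 the lowest, as for TNFRSF10B. CD40 ran otherwise, with 8.21 in Clone 2 and 0.603 in Clone 3. CD70, the ligand of CD27, had 0.536 FPKM in Clone 1 and 4.65 in Clone 2 but 33.3 in Clone 3 and 34.5 in Clone 4, against 46.3, 28.1 and 43.6 in the imatinib, nilotinib and GNF-2 populations and 37.9 in vehicle. It was thus low in the clones in which TNFRSF18 was high.

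The rest of the pathway was tested with limma over all 11843 genes. It was read through 102 genes in 5 lists (other receptors, ligands, adaptors and death signalling, NF-κB and IKK, NF-κB targets), of which 72 entered the fit. The NF-κB target SOD2 was left out because Clone 1 had no value for it. The other genes left out averaged under 1 FPKM. Between the clones and the resistant populations 4 of the 72 passed a Benjamini-Hochberg adjusted p of 0.05, all lower in the clones. Of all genes 883 passed (7.46%), 199 of them higher and 684 lower. An unadjusted limma p under 0.05 was reached by 17 of the 72 and by 27.1% of all genes. TNFRSF11A (RANK), a receptor that signals to the alternative NF-κB pathway, averaged 2.38 ± 1.18 FPKM in the clones and 7.27 ± 0.696 in the resistant populations (log2 difference -1.35, SE 0.25, adjusted p = 0.0266). NFKB2, the precursor of the p52 subunit of that pathway, averaged 22.6 ± 4.32 in the clones and 41.0 ± 3.47 in the resistant populations (log2 difference -0.85, SE 0.16, adjusted p = 0.0277). TRAF1 and TRAF5 are adaptors of TNF receptors. TRAF1 averaged 0.718 ± 0.300 in the clones and 2.30 ± 0.383 in the resistant populations (adjusted p = 0.0422). TRAF5 averaged 5.72 ± 2.01 in the clones and 12.7 ± 2.06 in the resistant populations (adjusted p = 0.0464; SD, n = 4 and n = 3 throughout). For each of the 4 genes every clone was below every resistant population. In vehicle TNFRSF11A had 3.897 FPKM, within the range of the clones (1.627 to 4.137) and below every resistant population. NFKB2 in vehicle lay within the range of the resistant populations, and TRAF1 and TRAF5 in vehicle lay above that range. None of the 72 passed without the imatinib, the nilotinib or the GNF-2 population or without Clone 1, while 3 to 5 passed without Clone 2, 3 or 4. A limma fit with inhibitor of origin as a block left out the nilotinib and vehicle populations. At the adjusted threshold it called 0 of the 72 and 11 of all genes. In that fit 10 of the 72 had an unadjusted limma p under 0.05, against 1919 of all 11843 genes.

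**Figure D5:**
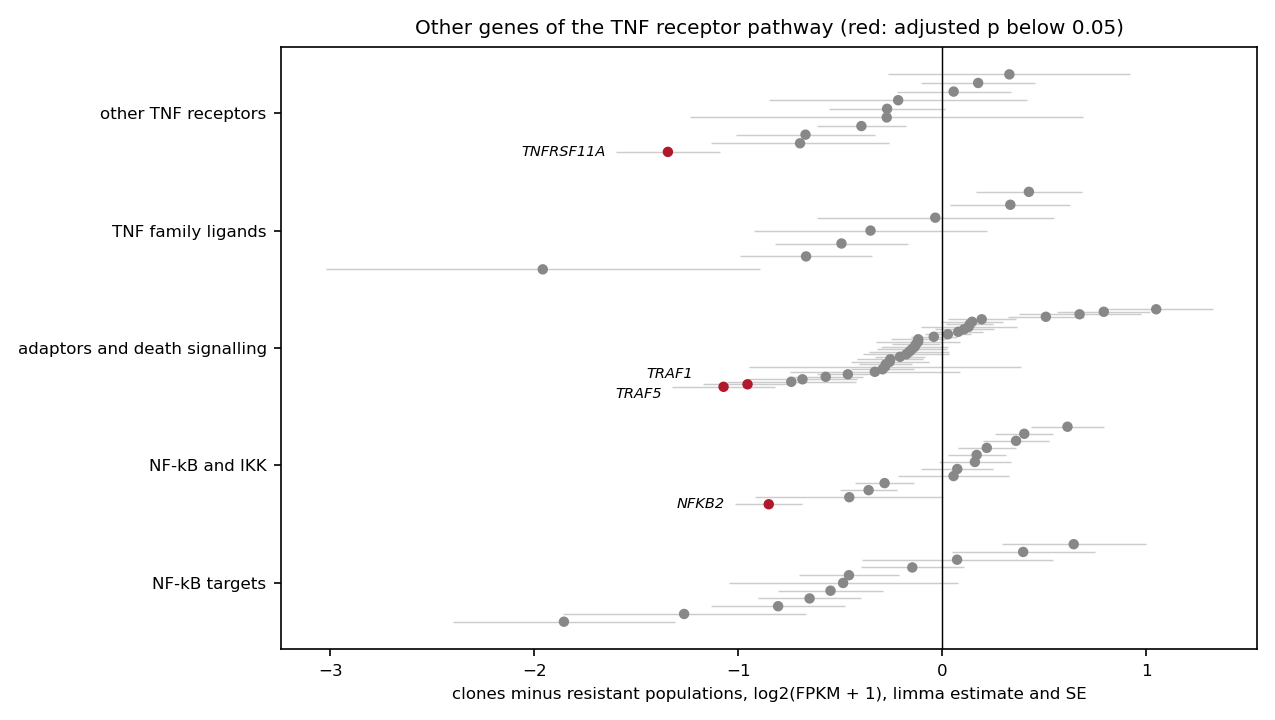
Clones minus resistant populations for the 72 tested pathway genes, by list, as limma's estimate of the log2(FPKM + 1) difference with its SE; red points passed an adjusted p of 0.05. The 4 red points, TNFRSF11A, TRAF1, TRAF5 and NFKB2, all lie below 0.

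These directions depend in part on scaling. When libraries were rescaled by median ratios, the median difference of all genes moved to 0.03 from -0.08, and 865 genes passed, 392 higher and 473 lower. TNFRSF11A and NFKB2 still passed as lower, TRAF1 and TRAF5 did not, and TRAF4 and CHUK, a TNF receptor adaptor and a subunit of the IκB kinase, passed as higher. As deposited, TRAF4 averaged 14.1 ± 3.66 FPKM in the clones and 6.34 ± 2.08 in the resistant populations, and CHUK 11.8 ± 2.30 in the clones and 7.30 ± 1.19 in the resistant populations. By list, 3 of 10 other receptors, 2 of 7 ligands, 11 of 32 adaptors, 8 of 12 NF-κB and IKK genes and 3 of 11 NF-κB targets lay above 0, where 42.3% of all genes did. The list medians were -0.27, -0.35, -0.14, 0.12 and -0.49 in that order, beside -0.08 for all genes.

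Several NF-κB targets had their highest level in vehicle, as did 13.9% of all tested genes. BCL2A1, an anti-apoptotic BCL2 relative, had 0.399 to 7.93 FPKM in the clones, 3.93 to 7.18 in the resistant populations and 22.6 in vehicle. TNFAIP8 had 2.72 to 19.9 in the clones, 11.5 to 19.0 in the resistant populations and 44.1 in vehicle, and PTGS2 1.00 to 2.37 in the clones, 2.23 to 3.06 in the resistant populations and 7.71 in vehicle. CCL5, a chemokine, instead had 14.0 to 72.2 in the clones, 107.7 to 189.3 in the resistant populations and 100.8 in vehicle. SOD2, not among the tested targets for want of a value in Clone 1, was lowest in vehicle (67.1). It had 73.0 to 96.7 in the other libraries with a value. Feedback inhibitors of the pathway were uneven: TNFAIP3 (A20) was highest in Clone 2 (27.7) and lowest in Clone 3 (2.73), and NFKBIA was highest in Clone 1 (37.7) and lowest in Clone 3 (14.8). BCL3, an IκB relative, had 39.4 in Clone 4 and 9.43 in Clone 3. CASP8, the caspase downstream of the death receptors, had 9.95 to 30.6 in the clones, 27.8 to 31.8 in the resistant populations and 43.5 in vehicle.

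No pathway gene passed limma's adjusted p of 0.05 in the remaining contrasts. Between the catalytic-resistant and the GNF-2-resistant libraries 4 of the 72 had an unadjusted p under 0.05, against 4.87% of all genes, and 4 of all genes passed the adjusted threshold (0.0338%). Between the GNF-2-resistant libraries and vehicle 13 of the 72 had an unadjusted p under 0.05, against 11.1% of all genes, and 11 genes of the table passed (0.0929%). The median difference of the 11 NF-κB targets was -1.17 in that contrast and of all genes 0.04. Between the catalytic-resistant libraries and vehicle 2 of the 72 had an unadjusted p under 0.05, against 2.69% of all genes, and 4 genes of the table passed (0.0338%). The same 11 targets had a median of -0.92 there, beside 0.02 for all genes; both contrasts share the vehicle library.

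Genes that correlated most with each member were looked up over the same libraries. BTG2 (r = 0.976) and MGC12982 (r = 0.972) were the genes that correlated most with TNFRSF1A over the 8 libraries. For TNFRSF10B they were COX6C (r = 0.974) and RPS6KA2 (r = 0.934), and for TNFRSF18 MOCS2 (r = 0.957) and C14orf109 (r = 0.937), each chosen as the best of 8897 genes. The best matches were GMPPA (r = 0.979) and RNASET2 (r = 0.976) for TNFRSF25, DHRS7 (r = 0.939) and ISM1 (r = 0.933) for TNFRSF14, ICAM1 (r = 0.910) and AIG1 (r = 0.886) for TNFRSF10A, and MKNK2 (r = 0.862) and APBB2 (r = 0.858) for TNFRSF1B. These are Pearson coefficients of log2(FPKM + 1) over the same 8 libraries and carry no test. Those of TNFRSF25 rest largely on its listed 0 in Clones 1 and 4, which can be a failed estimate. The coefficients do not compare levels or sizes of change. BTG2 ran from 0.656 to 23.7 FPKM, whereas TNFRSF1A ran from 55.0 to 83.4. COX6C ran from 259 to 291, whereas TNFRSF10B ran from 0.701 to 18.7.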

How the data were processed

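RNA of 8 KCL-22 libraries was sequenced, and the authors deposited a table of FPKM. TopHat 1.3, Cufflinks 1.3 and the build GRCh37 are named in the submitters' processing notes, without their roles. The unit was taken from these tools and the values, since the header does not name it. Starts in the table count from 0, so 1 was added. A total of 70 entries with a missing value were left out.

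The limma package 3.58.1 (R 4.3.3) was fitted to log2(FPKM + 1) of the 11843 genes that averaged an FPKM of 1 or more, with 1 mean per resistance group (catalytic, GNF-2, all 3 compounds, vehicle) or per kind (clone, resistant population, vehicle), a variance trend and Benjamini-Hochberg adjustment (0.05, two-sided). The fit by resistance group has 4 residual degrees of freedom, and vehicle and Clone 4, with 1 library each, are taken to vary as the replicated groups do. The fit was tested on simulated data. Single libraries were compared by FPKM ratios without a test. Tables and figures used Python 3.11.15, numpy 2.4.6, pandas 2.3.3 and matplotlib 3.10.9. Depth was estimated from single-exon genes of GENCODE 29.

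The members and gene lists were chosen with earlier results of these data known. Named were all members, pathway genes past the threshold and the 4 genes of each list with the widest range. The 2 genes most correlated with each abundant member were also named. Alternatives were other pseudocounts, filters and scalings, covariates, a block by inhibitor of origin, and leaving out each library.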

Additional observations from a re-analysis of the deposited data

How the results depend on the processing

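Of 350 recomputed member differences between group means, 15 moved by 1 SD or more and 26 changed sign. These sign changes include TNFRSF10B between catalytic-resistant and GNF-2-resistant libraries, 0.68 with all libraries and -0.35 without Clone 3, and a single difference of at least 1 on the log2 scale, TNFRSF25 between catalytic-resistant and GNF-2-resistant libraries, 1.12 with all libraries and between -0.082 without Clone 1, which is listed at 0, and 1.79 without the GNF-2 population. Genes passing limma between clones and resistant populations numbered 883, 238 with resistance group as a covariate and 128 to 1086 when 1 library was left out; of pathway genes 4 passed, 2 with a pseudocount of 0.1, 2 with a mean FPKM of at least 5, 2 with that covariate and 0 to 5 with a library left out. With quantile normalization 893 genes passed, 404 higher and 489 lower. Between catalytic-resistant and GNF-2-resistant libraries 4 genes passed, 2 with a mean of at least 5, 0 among genes above 0 in all libraries and 1 to 10 with a library left out; pathway genes gave 0 to 0. Between GNF-2-resistant libraries and vehicle 11 passed, 79 without a filter, 7 with a mean of at least 5, 0 among genes above 0 in all libraries and 1 to 13 with a library left out; pathway genes gave 0, 1 without a filter and 0 to 1. Between catalytic-resistant libraries and vehicle 4 passed, 59 without a filter, 2 with a mean of at least 5, 0 among genes above 0 in all libraries, 1 after median-ratio rescaling, 1 after quantile normalization and 0 to 1 with a library left out; pathway genes gave 0, 1 without a filter and 0 to 0. The causes were not tested. Members at least 2-fold apart, with a floor of 10 FPKM in place of 5, numbered 1 in place of 3 for imatinib against vehicle, 1 in place of 2 for nilotinib, 0 in place of 2 for GNF-2, 1 in place of 2 for Clone 4 against the GNF-2 population, 1 in place of 2 for Clone 4 against Clone 1 and 1 in place of 3 for Clone 4 against Clone 3. Nilotinib against vehicle gave 1 after median-ratio rescaling. A 2-fold difference on log2(FPKM + 1), added after seeing the data, as were the other floors for Clone 4 against Clones 1, 2 and 3, gave 1 for nilotinib and 1 for GNF-2 against vehicle. The labels give no replicate numbers, so samples were not paired by number; with inhibitor of origin as a block (4 clones with the imatinib and GNF-2 populations, 3 residual degrees of freedom), also added after seeing the data, 11 genes passed between clones and populations, 3 higher and 8 lower, and 0 pathway genes. With 1 library a condition, the spread of single conditions is not known.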

Other observations

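Genes further along the same stretch of chromosome 1 were read after their values were seen and were not tested singly. B3GALT6, a galactosyltransferase that builds proteoglycan linkers, had 15.7 to 33.6 FPKM in the clones, 5.93 to 13.2 in the resistant populations and 5.66 in vehicle. ACAP3, a GTPase-activating protein for ARF6, had 10.3 to 16.6 FPKM in the clones, 48.0 to 56.0 in the resistant populations and 38.9 in vehicle. For both genes the clones lay on 1 side of all populations. Of all tested genes 26.3% had no overlap between the clones and the resistant populations, a share that leaves vehicle out and is thus easier to meet. SDF4 and PUSL1 were likewise higher in every clone than in every population. PUSL1, however, was listed at 0 in the imatinib and vehicle populations, and an exact 0 can be a failed estimate. It had 16.5 and 15.8 FPKM in the nilotinib and GNF-2 populations and 19.0 to 23.2 in the clones. Its entry overlaps that of ACAP3. FAM132A and SCNN1D, at most 1.41 and 1.08 FPKM, were lower in every clone. Both averaged under 1 FPKM and so were not among the tested genes. TNFRSF18, TNFRSF4, TTLL10, C1orf159 and UBE2J2 did not split this way.

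FCER1G, the signalling chain of Fc receptors, and PCOLCE, an enhancer of procollagen processing, were among the genes highest in Clones 1 and 2. FCER1G had 37.1 FPKM in Clone 1 and 323.3 in Clone 2, and at most 14.5 elsewhere. PCOLCE had 24.9 in Clone 1 and 380.7 in Clone 2, and at most 8.23 elsewhere.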
